A study of Mus musculus with 384 samples.

Results

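*Akt1* and *Ctnnb1* were taken as the rows of the table of values whose identifier begins with either symbol, which gave 2 of the 69 assays, 1 for each gene, with values in 380 of the 384 samples in the labels. The samples are targeted RNA libraries of 12 brain region labels from 32 male Balb/c mice. The region labels are AMY (amygdala), BNST (bed nucleus of the stria terminalis), CER (cerebellum), PFC (prefrontal cortex), PVN (paraventricular nucleus of the hypothalamus), Pit (pituitary) and the dorsal (d) and ventral (v) parts of the hippocampal fields CA1, CA3 and DG (dentate gyrus). Each mouse carries 1 of 4 label groups, Co inject, Co naive, MS inject and MS naive, with 8 mice in each; what was injected is not stated in the labels, and they were not matched to the housing and stress conditions that the study names. All groups share the strain, the sex and a label of postnatal day 9, whereas the study describes adult animals of postnatal day 100, and the study names the nucleus accumbens where the labels name Pit. The study used the model mainly to explore how social experience changes a co-expression network of glucocorticoid-responsive risk genes for depression and schizophrenia. It tested the expression of single genes first. The comparisons possible here are those between region labels and between label groups.

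*Akt1* encodes a serine/threonine kinase that is recruited to the membrane by the lipid product of phosphoinositide 3-kinase. One of its substrates is the kinase Gsk3, which is inhibited by this phosphorylation. *Ctnnb1* encodes beta-catenin, a protein of adherens junctions and the effector of canonical Wnt signalling. Without a Wnt signal, Gsk3 in a destruction complex marks beta-catenin for degradation, and with it beta-catenin enters the nucleus and joins TCF/LEF factors at target genes. Both proteins are regulated by phosphorylation and stability, which these libraries do not measure.

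On build GRCm38 (GENCODE M21), the gene of *Akt1* covers positions 112653821 to 112674884 of chromosome 12 (minus strand), and the listed transcript, NM_009652, has 14 exons and starts at 112674276. *Ctnnb1* covers positions 120929216 to 120960507 of chromosome 9 (plus strand), and NM_007614 has 15 exons and starts at 120933400. The assays amplify a stretch within these transcripts whose letters and exon were not given in the sources used here. The 250 bases before each start (RefSeq sequence, GRCm38.p6) are shown as a description, and their bearing on the levels or correlations below was not tested. They lie at chr12:112674277-112674526 on the minus strand and chr9:120933150-120933399 on the plus strand, and the capitals mark GGGCGG, a GC box, read on either strand.
Akt1: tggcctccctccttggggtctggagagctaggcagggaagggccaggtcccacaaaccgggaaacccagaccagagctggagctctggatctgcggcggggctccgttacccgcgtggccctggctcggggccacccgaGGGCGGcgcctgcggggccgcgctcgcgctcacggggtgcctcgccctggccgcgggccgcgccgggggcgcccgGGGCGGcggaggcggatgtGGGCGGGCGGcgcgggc
Ctnnb1: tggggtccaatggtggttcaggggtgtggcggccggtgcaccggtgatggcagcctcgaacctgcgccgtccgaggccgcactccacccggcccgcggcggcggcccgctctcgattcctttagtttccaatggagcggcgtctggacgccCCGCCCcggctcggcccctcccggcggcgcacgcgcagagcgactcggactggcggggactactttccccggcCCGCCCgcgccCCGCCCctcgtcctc
The stretch of *Akt1* has 78.4% G and C and 31 CpG, and that of *Ctnnb1* 74.8% and 35, against medians of 52.4% and 6 over 32815 mouse promoters of this length. GGGCGG was matched 4 times for *Akt1*, the last pair overlapping, and 3 times for *Ctnnb1*; 32.7% of all promoters hold it. CCAAT was matched 2 times for *Ctnnb1* and not for *Akt1* (33.8% of promoters). Neither stretch holds TATAAA (12.4%), CTTTGAT of TCF/LEF factors (3.21%), TGTTCT of the glucocorticoid receptor (16.1%) or TGACGTCA (1.55%) on either strand.

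Reads were recovered from the normalized values on the assumption that the smallest step of a library's values is 1 read. On this basis the libraries held between 12898 and 261007 reads (median 139846). *Akt1* took 145 to 9104 reads of a library (median 1986.5) and *Ctnnb1* 525 to 13871 (median 4496.5) and neither was at 0 in any library. Levels are reads divided by a size factor for each library. Each assay has its own primers, so the levels of the 2 genes are not compared with each other. Libraries of a region label fell into 2 separate ranges in some cases. *Anxa2*, which encodes annexin A2, took either of 2 ranges with no library between them in Pit, dDG and vDG, and *Ociad2* did so in CER, dCA3 and vCA3. The upper *Anxa2* range held 31 libraries over its 3 labels (16, 8 and 7, from 23 mice) and the lower *Ociad2* range 32 (8 in CER, 8 in dCA3 and 16 in vCA3, from 25 mice), each about as many as the 30 to 32 libraries of 1 region label. Whether libraries of these labels were exchanged between regions was not tested; were they, a value by label in Pit, dDG, vDG, CER, dCA3 or vCA3 would be that of a mixture of tissues. None of the 39 markers of regions and cell types that were sought is among the assays, so no region label could be checked against defining markers. Levels, ratios and correlations of these 6 region labels are therefore given by range too. In tissue, fewer cells of a type and less RNA per cell cannot be told apart.

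*Akt1* had the largest share of variance between region labels of all assays, though not the largest difference in level. Of its variance on the log2(value + 1) scale, 56.8% lay between region labels, which ranks 1 of 69, against a median of 22.5% over the assays. The median level was 2749 in Pit, 2728 in dDG and 2527 in vDG. It was 2044 in CER, 2020 in dCA3 and 1903 in vCA3. In the other 6 region labels it ran from 1617 in PVN over 1597 in vCA1, 1523 in BNST, 1443 in PFC and 1359 in dCA1 to 1350 in AMY, so the highest median was 2.04 times the lowest. The ranks of Pit, dDG and vDG rest on labels that hold both ranges of *Anxa2*. Libraries ranged from 1757 to 4258 in Pit and from 763 to 1984 in AMY, and these ranges overlap only between 1757 and 1984.

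The order has 2 steps. With limma on all 69 assays and Benjamini-Hochberg adjustment, 47 of the 66 pairs of region labels passed an adjusted p of 0.1 for *Akt1* (71.2%), where 50.6% of the 4554 tests of all assays did. Among neighbours in the order, vDG was above CER by 0.30 on the log2 scale (standard error 0.088, adjusted p = 0.00261 in limma) and vCA3 was above PVN by 0.29 (standard error 0.089, adjusted p = 0.00372 in limma). The other 9 neighbouring pairs did not differ beyond their spread. All 45 pairs between the sets Pit, dDG and vDG; CER, dCA3 and vCA3; and the remaining 6 labels passed, and within the sets 2 of 21 did. With the libraries rescaled to the same total, 43 of the 45 and 3 of the 21 passed; vDG then did not differ detectably from CER (CER minus vDG -0.19 on the log2 scale, adjusted p = 0.131 in limma) or dCA3 (dCA3 minus vDG -0.19, adjusted p = 0.123 in limma), so the step from vDG to CER depends on the scale. These sets are also the labels where *Anxa2* is in separate ranges, those where *Ociad2* is, and those with neither. The median number of reads per library was 151004, 178756 and 106245 in the 3 sets. The study's methods place 3 regions on each library plate without saying which, so region and plate cannot be told apart.

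Within Pit, dDG and vDG, *Akt1* was lower where *Anxa2* was in its upper range. In Pit its median was 2110 in the 16 libraries of the upper range (1757 to 2967) and 3435 in the 16 of the lower range (2378 to 4258). In dDG it was 2371 in 8 libraries (1922 to 2922) and 3181 in 24 (2065 to 4323), and in vDG 2184 in 7 (1973 to 2703) and 2620 in 24 (1768 to 3819). The ranges of *Akt1* overlap in each label, and the medians of the upper *Anxa2* range are close to each other in the 3 labels. In CER, dCA3 and vCA3, the medians in the upper and lower range of *Ociad2* were 2044 and 2053, 2104 and 1848, and 1982 and 1890, respectively, with much overlap. These are descriptions with no test, since the ranges were drawn from the same libraries.

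**Figure D1:**
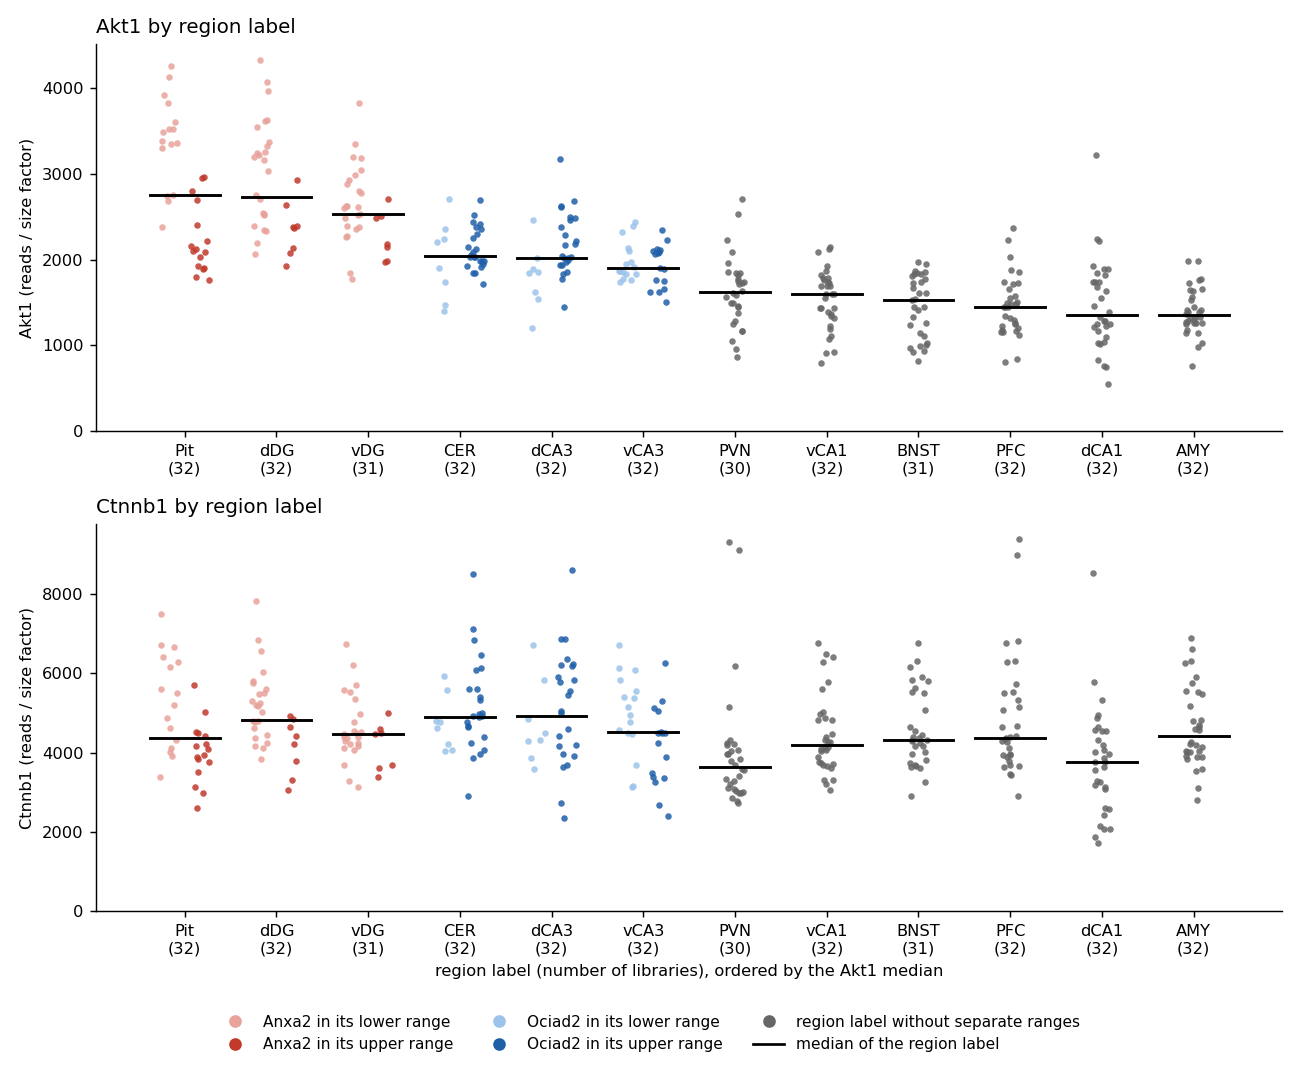
Level of *Akt1* (top) and *Ctnnb1* (bottom), in reads divided by the size factor, in each of the 380 libraries by region label. Points are libraries coloured by the range of *Anxa2* or *Ociad2*, and bars are medians; the *Akt1* medians run from 2749 in Pit to 1350 in AMY, whereas those of *Ctnnb1* stay between 3640 and 4917.

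*Ctnnb1* varied far less between region labels. The share of its variance between them was 12.97%, rank 52 of 69. Its median level was 4917 in dCA3, 4900 in CER, 4813 in dDG, 4504 in vCA3 and 4467 in vDG. It was 4416 in AMY, 4373 in PFC, 4359 in Pit, 4326 in BNST and 4200 in vCA1. The lowest medians were 3765 in dCA1 and 3640 in PVN, and the highest was 1.35 times the lowest. Libraries ranged from 2355 to 8603 in dCA3 and from 2732 to 9303 in PVN, which overlap almost fully.

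For *Ctnnb1*, 20 of 66 pairs of region labels passed (30.3%), against the 50.6% of all tests. Among neighbours in its order, vCA1 was above dCA1 by 0.30 on the log2 scale (standard error 0.093, adjusted p = 0.00387 in limma), and the other 10 neighbouring pairs did not differ beyond their spread. None of the 9 pairs between Pit, dDG and vDG and CER, dCA3 and vCA3 passed (adjusted p at least 0.148 in limma). By the range of *Anxa2*, the *Ctnnb1* median was 4014 in the upper and 5348 in the lower range in Pit, 4316 and 5183 in dDG, and 4467 and 4438 in vDG. By the range of *Ociad2*, it was 4945 in the upper and 4692 in the lower range in CER, 5245 and 4407 in dCA3, and 4366 and 5046 in vCA3. When the libraries were rescaled to the same total, 29 pairs passed for *Ctnnb1*, among them 19 of the 20, and 46 for *Akt1*, among them 43 of the 47. No called pair of either gene changed its sign; over all assays, the median log2 difference of a pair shifted by -0.34 to 0.32 with it.

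The relation of the 2 genes within a library does not depend on the size factor. The log2 ratio of *Ctnnb1* to *Akt1*, computed as log2((*Ctnnb1* + 1)/(*Akt1* + 1)), is used only to compare libraries. Its median was highest in AMY (1.74), BNST (1.74) and PFC (1.70), followed by vCA1 (1.58) and dCA1 (1.52). It was 1.28 in dCA3, 1.25 in vCA3, 1.23 in PVN and 1.19 in CER, and lowest in dDG (0.80), vDG (0.76) and Pit (0.72). By its median ratio, the PVN, the region label with the lowest *Ctnnb1* median, lay with CER, dCA3 and vCA3 and not with the other 5 labels of its set. By mean ratio it lay close to dCA1 too, with 1.28 in PVN, 1.36 in dCA1, 1.27 in CER, 1.24 in dCA3 and 1.19 in vCA3. The ratio was not tested between region labels. In dCA1 the ratio ran from 0.07 to 2.57 (standard deviation 0.71), the widest spread of the 12 labels, and in dDG from 0.42 to 1.14 (standard deviation 0.17), the narrowest. By the range of *Anxa2*, the median ratio was 0.91 in the upper and 0.61 in the lower range in Pit, 0.82 and 0.75 in dDG, and 0.90 and 0.75 in vDG. By the range of *Ociad2*, it was 1.23 in the upper and 1.12 in the lower range in CER, 1.23 and 1.42 in dCA3, and 1.13 and 1.34 in vCA3.

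**Figure D2:**
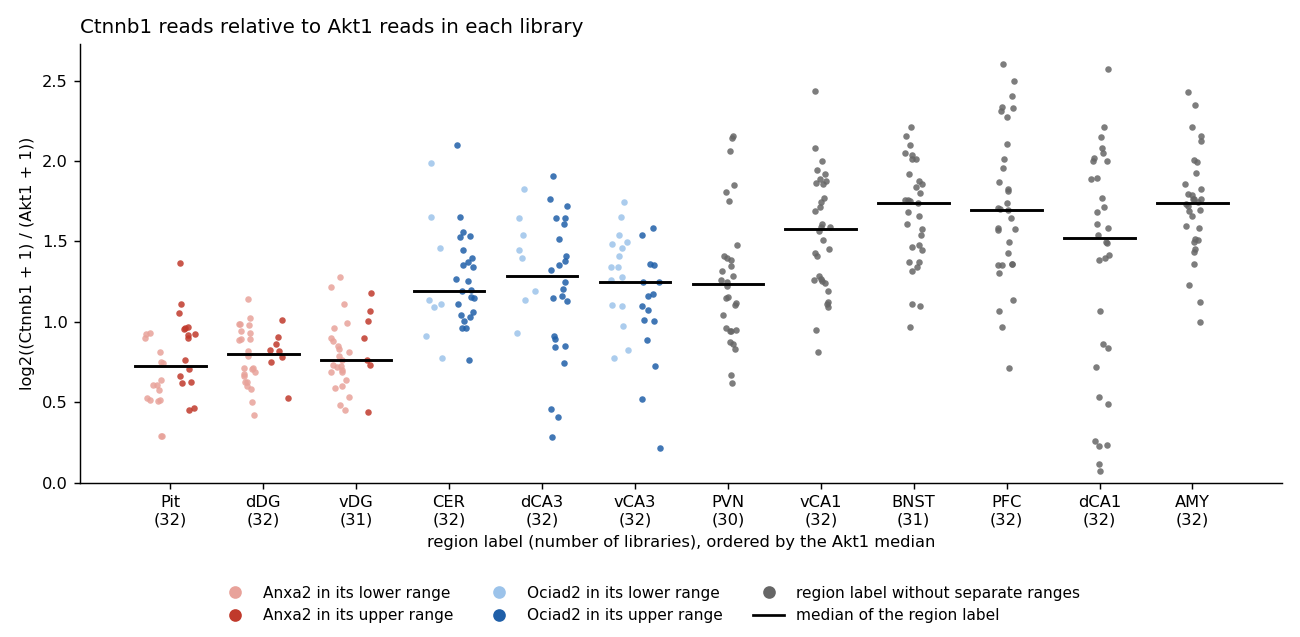
Log2 ratio of *Ctnnb1* to *Akt1* in each library by region label, ordered by the *Akt1* median. Points are libraries coloured by range and bars are medians; the medians of Pit, dDG and vDG lie between 0.72 and 0.80 and that of AMY at 1.74.

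The label groups were compared next, within each region label, to ask whether either gene differed by status (MS against Co), by injection (inject against naive) or by their interaction. No difference passed an adjusted p of 0.1 in limma for either gene, in 72 tests over 12 region labels and 3 terms, 1 of which had an unadjusted p under 0.05. Over all assays, 0% of the 826 status tests passed (22 with an unadjusted p under 0.05), 0.121% of the injection tests (31) and 0% of the interaction tests (19).

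The smallest adjusted p was that of *Ctnnb1* by injection in AMY. In AMY, *Ctnnb1* ran from 4140 over a median of 5040 to 6255 in Co inject and from 3918 over 4805 to 6873 in MS inject. It ran from 3114 over 3956 to 5746 in Co naive and from 2807 over 4295 to 5176 in MS naive (8 libraries each). The inject libraries lay higher, and the groups overlap. The log2 difference of inject minus naive was 0.28 (standard error 0.11, 95% confidence interval 0.05 to 0.50, adjusted p = 0.283 in limma). *Akt1* differed in the same comparison by 0.19 (-0.03 to 0.40, adjusted p = 0.572 in limma), with medians of 1343 in Co inject, 1257 in Co naive, 1416 in MS inject and 1339 in MS naive.

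Over the 12 region labels, the log2 difference of MS minus Co in *Akt1* lay between -0.13 in vCA3 and 0.20 in PVN and was positive in 4, and in *Ctnnb1* it lay between -0.20 in dCA1 and 0.15 in PVN and was positive in 5. That of inject minus naive lay between -0.22 in PFC and 0.19 in AMY for *Akt1* (6 positive) and between -0.12 in CER and 0.28 in AMY for *Ctnnb1* (3 positive). The 95% confidence intervals of these differences reached from 0.14 (vCA3) to 0.40 (dCA1) to either side of the estimate for *Akt1*, with a median of 0.25, and from 0.20 (vDG) to 0.38 (dCA1) for *Ctnnb1*, with a median of 0.26. No difference of these effects between region labels was detectable. In a fit to all libraries, the status effect had an F of 0.42 for *Akt1* and 0.49 for *Ctnnb1*, and the injection effect an F of 0.71 and 0.73 (adjusted p at least 0.999 for the 4 tests in limma; 0% of 69 assays passed for status, with 2 at an unadjusted p under 0.05, and 0% for injection, with 4).

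**Figure D3:**
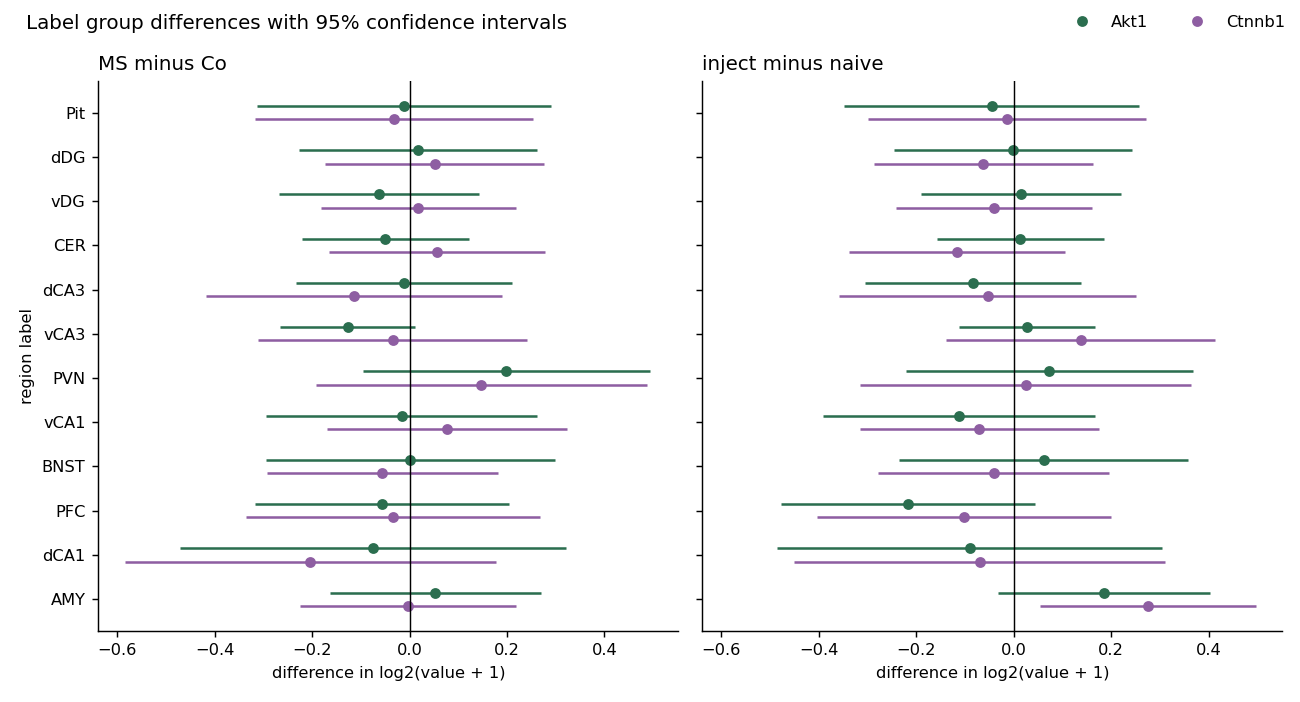
Difference in log2(value + 1) of *Akt1* and *Ctnnb1* between label groups in each region label, MS minus Co on the left and inject minus naive on the right. Points are limma estimates and lines 95% confidence intervals; of the 48 intervals only that of *Ctnnb1* in AMY by injection (0.05 to 0.50) leaves out 0, and its adjusted p was 0.283.

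A mean over the region labels of each mouse, after subtracting the mean of the region label, narrowed the intervals. On the log2 scale, the lowest, median and highest *Akt1* mean was -0.12, 0.01 and 0.20 among the 8 Co inject mice and -0.14, -0.01 and 0.25 among the 8 Co naive mice. Among MS inject mice they were -0.14, -0.03 and 0.13, and among MS naive mice -0.12, 0.02 and 0.10. The *Ctnnb1* mean spanned -0.35 to 0.22 (Co inject), -0.13 to 0.13 (Co naive), -0.19 to 0.18 (MS inject) and -0.11 to 0.21 (MS naive). All groups overlap. MS minus Co was -0.01 (95% confidence interval -0.09 to 0.06) for *Akt1* and -0.01 (-0.11 to 0.09) for *Ctnnb1*, and inject minus naive was -0.02 (-0.10 to 0.06) and -0.01 (-0.11 to 0.08). Of the 6 tests, interactions included, 0 passed an adjusted p of 0.1 and 0 had an unadjusted p under 0.05 in limma, where 0% of the 69 assays passed by status, 1.45% by injection and 0% by interaction. The ratio of *Ctnnb1* to *Akt1* also did not differ detectably by status or injection in any region label. Of 24 two-sided permutation tests (100000 resamples), none passed. The smallest p was 0.245 (adjusted p = 0.904), for inject minus naive in CER, with a mean of 1.20 in the 16 inject and 1.33 in the 16 naive libraries and a difference of -0.13.

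The 2 genes were then correlated across the libraries of each region label, after the means of the label groups had been subtracted from log2(value + 1). Within the ranges of *Anxa2* and *Ociad2*, r was taken on log2(value + 1) without this subtraction. Pearson's r was positive in all 12 region labels, from 0.04 in dCA1 to 0.84 in dDG, and 8 passed an adjusted p of 0.1 in a two-sided permutation test (100000 resamples, adjusted over the 12 labels); for Spearman's rho 9 did. The median r over all pairs of assays with a median of at least 100 in the label lay between -0.02 and 0.02. The share of such pairs with an r at least as high was 2.67% in dDG, 2.86% in BNST, 5.10% in Pit, 7.62% in vDG and 9.41% in PVN, and 16.3% in vCA1, 20.8% in CER and 24.8% in vCA3 among the labels that passed. It was 12.0% in AMY, 29.4% in PFC, 30.6% in dCA3 and 45.4% in dCA1.

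The correlation was highest in dDG and Pit, 2 labels with both ranges of *Anxa2*, between which the medians of both genes differ. In dDG (32 libraries), r was 0.84 (permutation p = 1e-05, the smallest the resamples can give, adjusted p = 6e-05) and rho 0.85, and r was 0.83 without the 2 libraries farthest from the *Akt1* median. Among assays with a median of at least 100 in dDG, *Ctnnb1* was the closest of the 50 others to *Akt1*. In turn *Akt1* ranked 3 for *Ctnnb1*, whose closest assay was *Cd47* (r = 0.86), which encodes an integrin-associated protein of the cell surface. Both genes were lower in libraries with more reads in this label (r with log2 reads -0.57 for *Akt1* and -0.50 for *Ctnnb1*), and the part of depth in the correlation was not tested. Within the ranges of *Anxa2*, r was 0.79 in the lower (24 libraries) and 0.84 in the upper range (8 libraries), and 0.74 and 0.79 without the 2 farthest libraries. In Pit (32 libraries), r was 0.79 (permutation p = 1e-05, adjusted p = 6e-05), rho 0.78, and r without the 2 farthest 0.80. It was 0.81 within the lower and 0.58 within the upper range of *Anxa2* (16 libraries each), and 0.70 and 0.30, respectively, without the 2 farthest libraries, so the correlation in the upper range rests on those libraries. In Pit both genes were higher in libraries with more reads (r with log2 reads 0.39 and 0.46). Under the same minimum median, the assay closest to *Ctnnb1* was *Cd47* in Pit (r = 0.92) and in vDG (r = 0.86) too.

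In vDG (31 libraries), r was 0.64 (permutation p = 9e-05, adjusted p = 0.00036), rho 0.46, and r without the 2 farthest 0.56. It was 0.66 in the 24 libraries of the lower range of *Anxa2* and 0.19 in the 7 of the upper range, and 0.60 and 0.54 without the 2 farthest. In BNST (31 libraries), r was 0.57 (permutation p = 0.00071, adjusted p = 0.00213), rho 0.54, and r without the 2 farthest 0.54. BNST has no separate ranges; r with log2 reads was 0.50 for *Akt1* and 0.23 for *Ctnnb1* there, and the part of depth was not tested. Within label groups, r was positive in each of the 4 in BNST (0.42 to 0.70), in 3 of 4 in vCA3 (-0.21 to 0.79) and in 2 of 4 in vCA1 (-0.09 to 0.67). In vCA1 (32 libraries), r was 0.40 (permutation p = 0.0228, adjusted p = 0.0391), rho 0.35, and r without the 2 farthest was 0.25, so part of it rests on them. In vCA3 (32 libraries), r was 0.45 (permutation p = 0.00987, adjusted p = 0.0197), rho 0.43, and r without the 2 farthest 0.60. Without subtraction of label group means these r values were 0.41 and 0.30. Within the ranges of *Ociad2*, also without subtraction, r was 0.50 in the lower and 0.32 in the upper (16 libraries each). Without the 2 farthest it was 0.26 and 0.11 in these ranges. In CER (32 libraries), r was 0.35 (permutation p = 0.0521, adjusted p = 0.0782), rho 0.44, and r without the 2 farthest 0.46; it was 0.50 in the 24 libraries of the upper range of *Ociad2* and -0.07 in the 8 of the lower, and 0.52 and 0.44 without the 2 farthest. Without the library with the fewest reads, CER no longer passed (r = 0.31, adjusted p = 0.112).

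In PVN (30 libraries), r was 0.49 (permutation p = 0.00636, adjusted p = 0.0153), rho 0.37, and r without the 2 farthest in *Akt1* 0.63. Leaving out any 1 library gave an r of 0.37 to 0.57. The PVN value rests on 3 libraries together, and r was 0.03 without them (permutation test, adjusted p = 0.896). They were left out for their high *Ctnnb1*, a choice made after the data were seen. Their *Ctnnb1* values were 6170 for mouse 247 (Co inject), 9108 for mouse 105 (MS naive) and 9303 for mouse 85 (MS inject). These libraries held 77881, 69462 and 63863 reads, and *Ctnnb1* in PVN had an r of -0.61 with log2 reads. The remaining 4 labels did not pass by Pearson's r. In AMY r was 0.32 (permutation p = 0.0763, adjusted p = 0.102), rho was 0.35 and passed (permutation test, adjusted p = 0.0693), and r was 0.28 without the 2 farthest. In dCA3 it was 0.30 (permutation p = 0.0936, adjusted p = 0.112), rho 0.28, and 0.36 without them; it was 0.53 in the 8 libraries of the lower and 0.25 in the 24 of the upper range of *Ociad2*, and 0.14 in both without the 2 farthest. In PFC it was 0.16 (permutation p = 0.386, adjusted p = 0.421), rho 0.11, and 0.21 without them. In dCA1 it was 0.04 (permutation p = 0.81, adjusted p = 0.81), rho 0.04, and -0.07 without them.

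**Figure D4:**
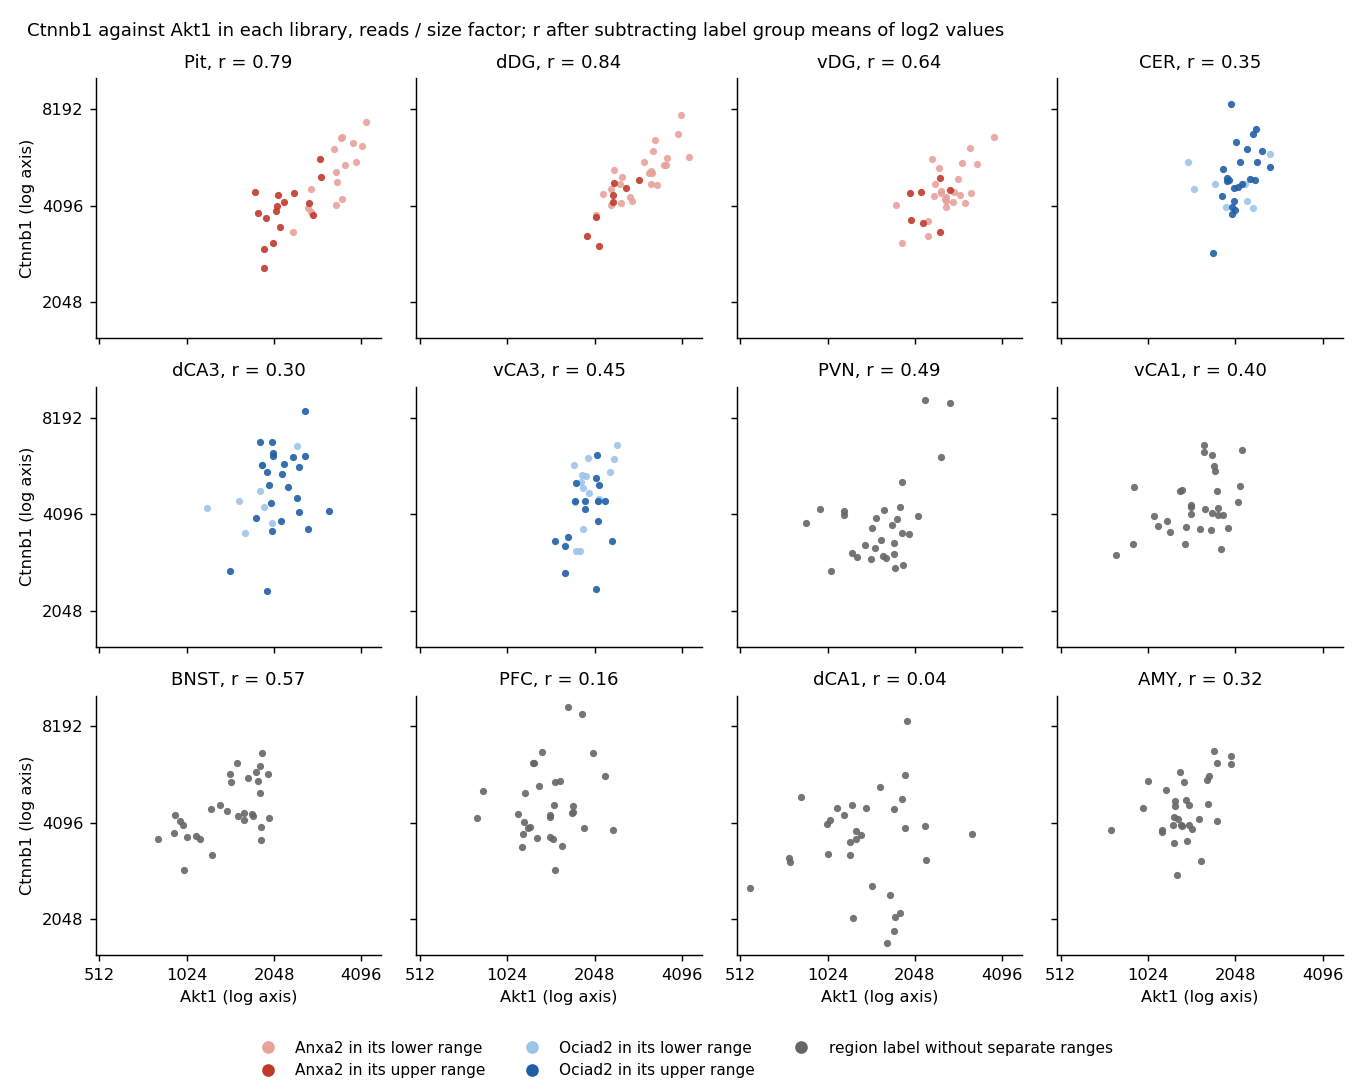
*Ctnnb1* against *Akt1* in each library, in reads divided by the size factor on log2-spaced axes, 1 panel for each region label with r after subtraction of label group means. Points are libraries coloured by the range of *Anxa2* or *Ociad2*; they lie along a line in dDG (r = 0.84) and Pit (r = 0.79), scatter in dCA1 (r = 0.04), and 3 libraries with high *Ctnnb1* stand above the rest in PVN.

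The correlations changed with the scale of the libraries. After all libraries were rescaled to the same total, r lay between 0.35 in dCA1 and 0.92 in vCA3 and passed in all 12 labels. The median r over all pairs of assays then rose too, to 0.40 in vCA3, 0.26 in dCA3, 0.22 in CER and 0.13 in dCA1, and stayed under 0.10 in the other 8 labels. The share of pairs with an r at least as high as that of *Akt1* and *Ctnnb1* was lower on this scale in each label, among them vCA3 (3.32%), CER (8.90%), vCA1 (10.99%), PVN (2.51%) and BNST (0.571%), and was highest in dCA1 (32.003%). In dDG and Pit, r was 0.90 and 0.88 on this scale. Across the 32 mouse means, r was 0.39 (permutation p = 0.0293) and rho 0.44 (permutation p = 0.0119), with adjusted p-values over these 2 tests of 0.0293 and 0.0238, and r was 0.26 without the 2 mice farthest from the *Akt1* median.

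Other assays had an *Akt1*-like profile over region labels. As a description over the 12 medians, the assays with the highest r with *Akt1* were *Mtmr3* (0.97), a myotubularin-related phosphoinositide phosphatase, *Ube2g2* (0.96), a ubiquitin-conjugating enzyme, and *Lrrc25* (0.95), whose median was at most 4.08 in any label. *Mtmr3* ran from a median of 182 in dCA1 to 398 in Pit. For *Ctnnb1* they were *Commd1* (0.74), *Thbs1* (0.69) and *Fan1* (0.64), the last with medians of at most 6.19. *Akt1* and *Ctnnb1* had an r of 0.52 with each other and ranked 30 and 8 of 67 in each other's order. The 12 points share libraries, size factors and possibly plates.

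Of 54 genes listed for the Akt, Gsk3 and Wnt pathways and their regulators, 9 are measured besides these genes. By status, 0 of 108 tests in the region labels passed in either direction, by interaction 0 of 108, and by injection 1 of 108. Over all assays 0.121% of 826 injection tests passed, a share made up of that same 1 test. At an unadjusted p under 0.05 in limma were 6 of the 108 and 31 of the 826. The test that passed is of *Cdkn1a* (listed as CDKN1A), which encodes the p21 inhibitor of cyclin-dependent kinases and whose protein Akt phosphorylates. In vDG it was higher in inject than in naive libraries by 1.59 on the log2 scale (standard error 0.43, adjusted p = 0.0575 in limma). In the mouse means *Cdkn1a* was also the 1 of the 9 that passed, by injection, with a difference of 0.71 (0.33 to 1.09, adjusted p = 0.0415 in limma). It was the only 1 of all 69 assays to pass there (1.45%). *Fkbp5*, which encodes a co-chaperone that binds Akt and the glucocorticoid receptor, had a difference of 0.54 (0.14 to 0.94, adjusted p = 0.224 in limma). The medians of the list's log2 differences over the region labels were 0.01 by status, 0.09 by injection and -0.00 by interaction, and for *Akt1* and *Ctnnb1* they were -0.01, -0.04 and -0.03.

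Levels of the list's genes did not all follow the same order of region labels. The median of 6 of the 9 (66.7%) was highest in Pit or dDG, as was that of 31 of 68 assays (45.6%). Among them, *Mtmr3* was highest in Pit and *Pitpnm2*, a membrane-associated phosphatidylinositol transfer protein, in dDG (1711, against 237 in vCA1). The ubiquitin ligase genes *Nedd4* and *Nedd4l*, whose proteins act on membrane proteins and signalling components, had medians from 753 in dCA3 to 1583 in Pit and from 623 in vCA1 to 2281 in dDG. *Nr3c1*, the gene of the glucocorticoid receptor, ran from 231 in PFC to 456 in Pit and *Fkbp5* from 39.8 in vCA3 to 238 in Pit. *Hsp90aa1*, a chaperone of Akt and of the glucocorticoid receptor, ran from 9496 in Pit to 23121 in vCA1, with an r of -0.90 with *Akt1* over the 12 medians. *Cdkn1a* was lowest in dDG (26.6) and highest in AMY (79.8), and *Fscn1*, which bundles actin and can bind beta-catenin, ran from 164 in Pit to 453 in vDG.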

How the data were processed

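TruSeq Targeted RNA libraries were sequenced on a MiSeq. The authors filtered reads with PRINSEQ, aligned them with BWA to the assay manifest and deposited a signal, each assay's reads over a library size factor from DESeq2; per the labels the build is mm10. Every value (100% of 26220, tolerance 0.01) was a whole multiple of 1 step in its library, taken as 1 read, which gave the reads per library (12898 to 261007). Reads of amplified libraries are not independent molecules. All columns were mapped to samples (0 were not).

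Values were taken as log2(value + 1), which understates changes of low genes. limma 3.58.1 (R 4.3.3) was fitted on 69 assays, within each region label for status, injection and interaction, on mouse means, and over all libraries for pairs of region labels, with Benjamini-Hochberg adjustment and a threshold of 0.1. Correlations and ratios were tested by permutation (Python 3.11.15, numpy 2.4.6, 100000 resamples). The steps were tested on simulated data. Alternatives were pseudocounts of 0.1 and 10, rescaled totals, a mean of at least 10, an adjusted p of 0.05, 5 principal components and left-out libraries. Libraries with the same mouse number come from the same animal, per the labels; deviations from group means had a median correlation over assays of 0.0017 between libraries of a mouse and -0.0020 between mice, and 8.49% (*Akt1*) and 12.9% (*Ctnnb1*) of the variance within groups lay between mice. No 2 libraries were identical. Separate ranges are split by an interval of over 1 on the log2 scale.

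The genes named are *Akt1* and *Ctnnb1*, for each the 3 assays closest over region medians, the measured genes of the pathway list, and *Anxa2* and *Ociad2*; *Cd47* was named after its values were seen. The members and lists were chosen with earlier results of these data known.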

Additional observations from a re-analysis of the deposited data

Results flagged for a closer look

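Among 96 groups of a gene, region label and label group, 8 held a library far from the others (Dixon's test on the values themselves, 95% critical value; about 1 in 20 groups would by chance), and all 8 were high values of *Ctnnb1*. On the log2(value + 1) scale 5 groups did, 4 of them among the 8 (those of mice 85 and 105) and 1 with a low *Akt1* value, 1208 for mouse 247 in dCA3, Co inject. Mouse 85 (MS inject) accounts for 3 of them. Its *Ctnnb1* value was 5486 in BNST (others of the group 3646 to 4311), 8963 in PFC (3667 to 5137) and 9303 in PVN (3079 to 4201). In MS naive, the values were 9369 for mouse 109 in PFC (2915 to 5718) and 9108 for mouse 105 in PVN (2854 to 4225). In Co inject, mouse 247 had 6170 in PVN (2732 to 4242). In Co naive, mouse 239 had 7819 in dDG (4124 to 5750) and mouse 259 had 6752 in vCA1 (3202 to 4829). The PFC, PVN and vCA1 libraries among them held between 55765 and 90085 reads, and those in BNST and dDG 153125 and 145997. Without the 8 libraries, 0 of 72 label tests passed, as with them.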

How the results depend on the processing

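Of 122 values under an alternative, for 21 results, 111 kept their side of the threshold or lay within 1.5 times the count. The tests of whole reads with edgeR and DESeq2 were not run, since the recovery of whole reads rests on 1 step per library and 69 assays are too few to check it from low values. No label test of either gene passed under any alternative (smallest adjusted p 0.119, with 5 principal components). With the mouse as a replicate block, 47 pairs of region labels passed for *Akt1* and 22 for *Ctnnb1*, and the block changed no other count. Among the 6 region labels without separate ranges, 2 of 15 pairs passed for *Akt1* and 0 did in a fit to these labels alone (5 of 15 against 7 for *Ctnnb1*); the fit has fewer samples. The correlation without the 8 libraries of high *Ctnnb1*, an alternative chosen after seeing the data, turned in PFC from 0.16 to -0.038, neither of which passed, and ended the call in PVN. The correlation in CER (0.35) no longer passed without the library with the fewest reads (0.31), without subtraction of label group means (0.32) or with range means subtracted (0.32). It passed in AMY without subtraction (0.41) and after rescaling (0.42), and after rescaling also in PFC (0.37), dCA1 (0.35) and dCA3 (0.67); the cause was not tested. The replicates are mice, and the spread includes dissection and library preparation.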
